A study of Macaca mulatta with 33 samples.

Results

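Immediate early genes are switched on within minutes of a signal, without new protein synthesis, and their transcripts are short-lived. Many of them encode transcription factors. FOS and JUNB pair as subunits of AP-1, a dimeric factor of leucine zipper proteins. ATF3 is a leucine zipper factor of stress responses, KLF4 is a zinc finger factor, and DUSP1 is a phosphatase that switches off MAP kinases, the enzymes that induce the rest of the family. In the ovary, luteinizing hormone and its relative chorionic gonadotropin act through a receptor coupled to cAMP and MAP kinase signalling, which is a known route to these genes.

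The genes examined were 9 immediate early genes chosen by name: FOS, FOSB, JUN, JUNB, EGR1, ATF3, DUSP1, IER3 and KLF4. Probe sets annotated with exactly 1 of these symbols were taken, which gave 9 probe sets for 5 genes: FOS (1), JUNB (1), ATF3 (3), DUSP1 (2) and KLF4 (2). FOSB, JUN, EGR1 and IER3 were not analysed here. Of the 9 probe sets, 8 passed the filter on low values, out of 28911 of 52865 on the array that did. The third ATF3 probe set, with a mean of 4.90, did not pass. Each gene is described by its probe set with the highest mean, and the others are given beside it.

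The tissue was luteal tissue dissected from corpora lutea of adult cycling female rhesus macaques, hybridized to 33 Affymetrix Rhesus Genome arrays. Human chorionic gonadotropin (hCG) was given in rising doses from luteal day 9 to simulate early pregnancy, alone, with trilostane (TRL), an inhibitor of the progesterone-making enzyme 3β-hydroxysteroid dehydrogenase, or with trilostane and the synthetic progestin R5020. The untreated tissue came from luteal day 10 (8 arrays). The groups with 1 day of hCG, also collected on day 10, were hCG alone, hCG with trilostane, and hCG with trilostane and R5020 (4 arrays each). The same 3 treatments were collected on day 15 after 6 days of hCG (5, 4 and 4 arrays). All treated groups therefore received hCG, no group received trilostane or R5020 without it, and there was no untreated group of day 15, so against untreated tissue the effects of luteal day and of 6 days of treatment cannot be told apart. The labels do not say that each sample came from a separate animal, so the tests speak of the variation among the samples at hand, part of which may be technical.

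The arrays fall into 3 sets by a digit in their names. Set 1 holds untreated samples 1 to 4, all day 10 hCG and hCG with trilostane samples, and most day 15 hCG arrays. Set 2 holds untreated samples 6 to 9, all day 10 samples with R5020, and samples 1 to 3 of both day 15 trilostane groups. Set 3 holds 3 arrays of day 15. The titles mark untreated samples 1 to 4 and all but 1 array of hCG alone as a reanalysis, without saying of what. The levels below are log2 intensities centred on the array median and adjusted to set 1, and array set is a term of every fit unless stated. The array names of day 15 hCG arrays 3 and 5 differ only in a leading letter, while their titles number them apart. Their values were close (SD of the difference 0.201 over probe sets). They were taken as 1 sample and averaged, which leaves 32 samples. Sample 4 of day 15 hCG with trilostane and sample 4 of day 15 hCG with trilostane and R5020 were nearly the same (SD of their difference 0.192 over probe sets, against a median of 0.476 over all 528 pairs of arrays) although their labels differ. Calls and list counts of the day 15 trilostane groups, and the differences described for DUSP1, JUNB and FOS, are given with them and without array set 3, which leaves both out. Of 10 markers of steroid-making luteal cells, 6 were measured, and these had high levels in untreated tissue (STAR 14.48 ± 0.07, HSD3B2 13.33 ± 0.28, SD, n = 8). The difference between 3′ and 5′ control probe sets, a sign of RNA quality, had group means of 0.894 to 1.06 for GAPDH and 0.89 to 1.19 for actin. In whole tissue, fewer cells of a type and less RNA per cell cannot be told apart.

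DUSP1 and JUNB were lower in trilostane-treated tissue after 6 days of hCG than in untreated tissue, by 2.05-fold and 1.5-fold. DUSP1 was also lower, by 1.59-fold, where R5020 was given with trilostane for 6 days, and JUNB was lower, by 1.51-fold, where it was given for 1 day. These 2 calls with R5020 were kept in 38 and 39 of 48 alternatives. Of the 48, 34 left out 1 array or the averaged pair, including arrays of groups not compared. Leaving out single samples of the compared groups could lose either call, and for JUNB any treated sample did. JUNB with R5020 for 6 days differed by -0.49 (limma adjusted p = 0.058), and no difference between the days passed the test. No member passed the test after hCG alone, at either time, and none did when the trilostane or R5020 groups were set against each other or against hCG alone. With no array set term, JUNB passed after 6 days of hCG alone (-0.51, limma adjusted p = 0.047). FOS had the widest spread of the members and passed no test. ATF3 and KLF4 passed none. Over all 7 groups, an F test in limma found differences for DUSP1 (adjusted p = 0.0031) and JUNB (0.018) but not for FOS (0.35), ATF3 (0.57) or KLF4 (0.34). These are 2 of 5 genes, against 14.9% of all probe sets tested.

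**Figure D1:**
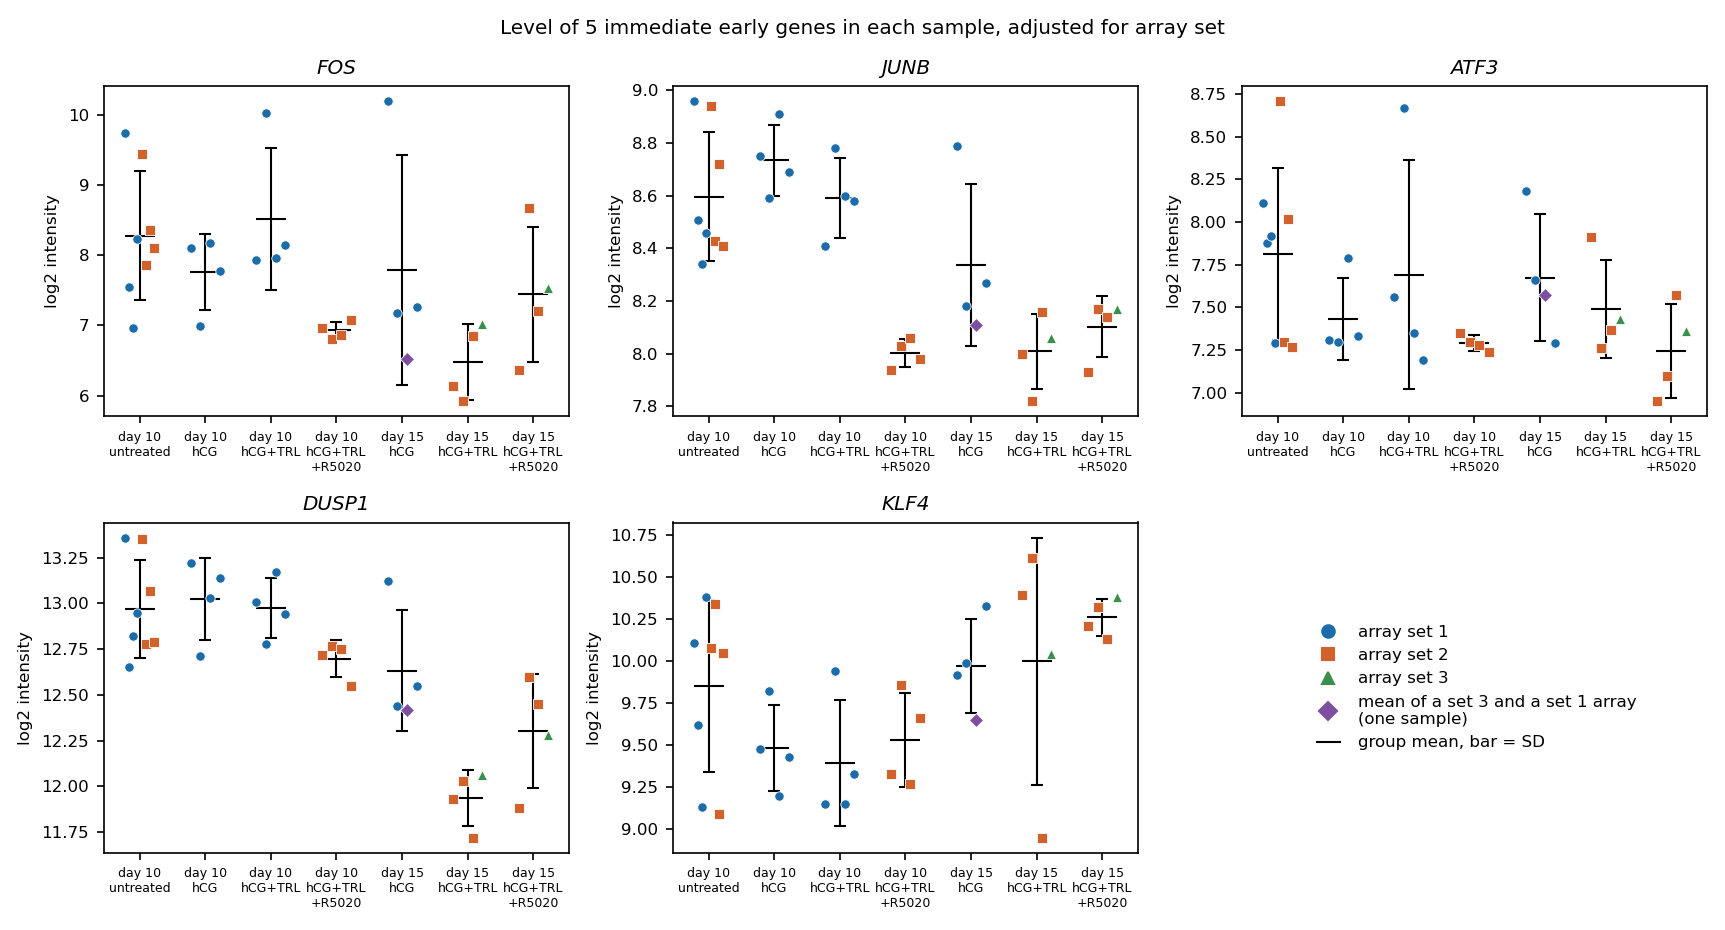
Level of each gene (log2 intensity, adjusted for array set) in every sample of the 7 groups; the marker shape gives the array set, the horizontal line the group mean and the bar the SD (n = 8 untreated, 4 in the other groups). All 4 DUSP1 values of day 15 hCG with trilostane (11.72 to 12.06) lie below the lowest untreated value (12.65), while FOS values of 1 group span up to 3.69.

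DUSP1 removes phosphate from ERK, p38 and JNK kinases and so ends the signal that induces it. Its level in untreated tissue was 12.65 at the lowest, 12.89 at the median and 13.36 at the highest (mean 12.97 ± 0.27, SD, n = 8). In day 10 tissue it was 13.22, 12.71, 13.03 and 13.14 with hCG, and 13.01, 12.78, 13.17 and 12.94 with hCG and trilostane. With R5020 added it was 12.72, 12.77, 12.75 and 12.55. All 3 of these groups overlapped the untreated range.

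On day 15, DUSP1 was 13.12, 12.44, 12.42 and 12.55 with hCG, 11.93, 12.03, 11.72 and 12.06 with hCG and trilostane, and 11.88, 12.60, 12.45 and 12.28 with hCG, trilostane and R5020. Both trilostane groups lay wholly below the untreated samples, and the first also lay below every sample of hCG alone. Without the adjustment for array set, the group with R5020 overlapped untreated tissue (12.74 in its sample 2, lowest untreated value 12.65). The group means ran from day 10 hCG (13.02) through day 10 hCG with trilostane (12.98), untreated (12.97), day 10 with R5020 (12.70), day 15 hCG (12.63) and day 15 with R5020 (12.30) to day 15 hCG with trilostane (11.94). Each group in this order overlapped the next.

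Against untreated tissue, DUSP1 fell by 1.03 ± 0.17 (SE, log2) in day 15 hCG with trilostane (95% interval -1.39 to -0.68, limma adjusted p = 0.00044). This call held in all 48 alternatives run for it, with differences of -1.10 to -0.89, and the difference was -1.10 without array set 3 and so without the near-identical arrays (adjusted p = 0.00062). The second DUSP1 probe set gave -0.97 ± 0.28 (adjusted p = 0.028), with groups that overlapped. With R5020 on day 15, DUSP1 fell by 0.67 ± 0.17 (95% interval -1.02 to -0.31, adjusted p = 0.030). That call was lost when probe sets of a gene were averaged (-0.69, adjusted p = 0.057), where JUNB passed in the same comparison (-0.49, 0.045). It was lost without array set 3 (-0.69, adjusted p = 0.058) and within array set 2 (-0.69, 0.078). It was also lost without untreated sample 6 (-0.55, 0.11) or 8 (-0.64, 0.068), without sample 4 of day 15 hCG with trilostane (-0.64, 0.051), and without sample 1 (-0.50, 0.18) or 4 (-0.66, 0.072) of the R5020 group itself. The second probe set gave -0.71 ± 0.28 (adjusted p = 0.18), with groups that overlapped.

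Within day 15, DUSP1 differed by -0.69 ± 0.22 between trilostane and hCG alone (95% interval -1.15 to -0.24), and the groups did not overlap (true of 5.71% of probe sets in that direction). The unadjusted p was 0.0044, but after adjustment over all probe sets it was 0.63, and no probe set passed in this comparison (0%, with 1721 at an unadjusted p under 0.05). The difference was -0.84 without array set 3 (adjusted p = 0.33) and -0.09 when only these groups were fitted (adjusted p = 1). The second DUSP1 probe set gave -0.62 ± 0.36 (95% interval -1.35 to 0.11, unadjusted limma p 0.092). The hCG samples lie in array set 1, with 1 of them averaged with a set 3 array, and the trilostane samples in sets 2 and 3. Without the adjustment for array set the groups overlapped (12.50 in trilostane sample 4, 12.44 in hCG sample 2). R5020 against trilostane alone gave 0.37 ± 0.17 on day 15 (adjusted p = 1; 0.41 without array set 3, adjusted p = 1) and -0.28 ± 0.24 on day 10 (adjusted p = 1).

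JUNB is the AP-1 subunit that can both replace and restrain JUN. It ranged from 8.34 to 8.96 in untreated tissue, with a median of 8.48 (mean 8.60 ± 0.24, SD, n = 8). Day 10 values were 8.75, 8.59, 8.91 and 8.69 with hCG, and 8.41, 8.78, 8.60 and 8.58 with hCG and trilostane. With hCG, trilostane and R5020 they were 7.94, 8.03, 8.06 and 7.98, all below the lowest untreated sample and within a span of 0.12.

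Day 15 JUNB values were 8.79, 8.18, 8.11 and 8.27 with hCG, 8.00, 7.82, 8.16 and 8.06 with hCG and trilostane, and 7.93, 8.17, 8.14 and 8.17 with R5020 added. Both trilostane groups of day 15 lay below the untreated range, and 3 of the 4 day 15 hCG samples did too, while the first lay inside it. Without the adjustment for array set, both trilostane groups of day 15 overlapped untreated tissue, as did day 10 tissue with R5020. The means fell in the order day 10 hCG (8.73), untreated (8.60), day 10 hCG with trilostane (8.59), day 15 hCG (8.34), day 15 with R5020 (8.10), day 15 hCG with trilostane (8.01) and day 10 with R5020 (8.00), and neighbours in this order overlapped.

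JUNB fell by 0.58 ± 0.14 in day 15 hCG with trilostane against untreated tissue (95% interval -0.88 to -0.29, limma adjusted p = 0.012), a call kept in 44 of 48 alternatives, among them the fit without array set 3 and the near-identical arrays (-0.63, adjusted p = 0.014). It fell by 0.60 ± 0.14 in day 10 hCG with trilostane and R5020 (95% interval -0.88 to -0.31, adjusted p = 0.034), a call kept in 39 of 48. On day 15 with R5020 the difference was -0.49 ± 0.14 (95% interval -0.79 to -0.20, adjusted p = 0.058), which passed in 7 of 48; without array set 3 it was -0.54 (0.078). These 3 values, like others that cross array sets, rest on the adjustment for array set, because JUNB read 0.57 higher in set 2 than in set 1, about as much as the differences themselves. With no array set term the 3 became -0.37 (adjusted p = 0.15), -0.31 (0.39) and -0.28 (0.33). Within array set 2, where treated and untreated samples share the set, they were -0.63 (0.017), -0.62 (0.04977) and -0.54 (0.077). After 6 days of hCG alone, JUNB differed from untreated tissue by -0.26 ± 0.14 (limma adjusted p = 0.32). With no array set term that difference was -0.51 (0.047), a call.

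Single samples also decided the JUNB calls. The day 15 call was lost without untreated sample 6 (-0.48, adjusted p = 0.052) or without sample 2 of the treated group (-0.51, 0.064). The day 10 call with R5020 was lost without untreated sample 6 (-0.49, 0.14) or 8 (-0.56, 0.095) and without any of the 4 treated samples (adjusted p = 0.067 to 0.10). Between 6 days and 1 day of hCG, JUNB differed by -0.40 ± 0.14 (adjusted p = 0.098). Without day 15 hCG sample 1 this became -0.56 (adjusted p = 0.018).

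FOS, the AP-1 subunit with the fastest and briefest induction, differed most between samples. In untreated tissue it was 9.74, 7.55, 6.96 and 8.23 in samples 1 to 4 and 9.44, 7.86, 8.36 and 8.10 in samples 6 to 9 (mean 8.28 ± 0.92, SD, n = 8). Samples 1 and 6, from array sets 1 and 2, stood over 1 unit above the rest.

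Day 10 FOS values were 8.10, 6.99, 8.18 and 7.78 with hCG and 7.93, 10.03, 7.96 and 8.14 with hCG and trilostane. With R5020 added they were 6.97, 6.81, 6.86 and 7.08, the narrowest group for FOS (SD 0.12). Day 15 values were 10.20, 7.18, 6.52 and 7.27 with hCG, 6.13, 5.92, 6.85 and 7.02 with hCG and trilostane, and 6.36, 8.67, 7.20 and 7.54 with R5020. A single high sample set the mean of day 15 hCG (7.79 ± 1.64, SD, n = 4; median 7.22).

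From the lowest to the highest of the 32 samples FOS spanned 4.28, or 19.4-fold, against spans of 1.14 for JUNB, 1.77 for ATF3, 1.64 for DUSP1 and 1.66 for KLF4. Its SD within groups was 0.97, above that of 99.5% of all probe sets tested, whose median was 0.21. KLF4 (0.45) and ATF3 (0.43) lay above 92.0% and 90.8%, DUSP1 (0.25) above 64.3% and JUNB (0.20) above 46.5%. FOS therefore needed a larger difference than JUNB or DUSP1 to pass the same test.

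FOS in day 15 hCG with trilostane differed from untreated tissue by -1.80 ± 0.65 (95% interval -3.14 to -0.46), 3.47-fold lower, which did not pass (limma adjusted p = 0.090). Without array set 3 it was -2.14 (adjusted p = 0.065). It passed within array set 2 (-2.14, adjusted p = 0.017) and without day 15 hCG sample 1 (-1.94, 0.024). The day 10 group with R5020 gave -1.35 ± 0.64 (adjusted p = 0.45) and that of day 15 gave -0.84 ± 0.65 (0.59; -1.03 without array set 3, 0.59). Against trilostane alone, R5020 gave -1.58 ± 0.89 on day 10 and 0.96 ± 0.64 on day 15 (1.11 without array set 3). The difference between the 2 days, 2.54 ± 1.10 (95% interval 0.29 to 4.80; 3.01 without array set 3), had an unadjusted p of 0.029 and an adjusted p of 1. The same difference was 0.68 ± 0.24 for JUNB (unadjusted p 0.0092) and 0.64 ± 0.29 for DUSP1 (0.036), both with an adjusted p of 1 in limma. Without array set 3 these were 0.73 and 0.74, and with no array set term they were 0.12 and 0.51. The second DUSP1 probe set gave 0.36 ± 0.47 for this difference (unadjusted limma p 0.445). No probe set passed in it (0%, with 973 of 28911 at an unadjusted p under 0.05), nor in the difference of the trilostane effect between days (0%, with 939).

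ATF3 ranged from 7.27 to 8.71 in untreated tissue (mean 7.81 ± 0.51, SD, n = 8), where sample 6 was the highest, as it was among the highest for FOS. Its means in the treated groups ran from 7.24 (day 15 with R5020) to 7.69 (day 10 hCG with trilostane), and every treated group overlapped the untreated one. The differences from untreated tissue lay between -0.57 and -0.12 and the smallest adjusted p was 0.34. The second ATF3 probe set read near the filter and gave differences of -0.08 to 0.19.

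KLF4 is a factor of differentiating epithelium, endothelium and macrophages. It ranged from 9.09 to 10.38 in untreated tissue (mean 9.85 ± 0.51, SD, n = 8). Its means were 9.48, 9.39 and 9.53 in the day 10 groups with hCG, with trilostane and with R5020, and 9.97, 10.00 and 10.26 in the same treatments on day 15. The value against untreated tissue was thus below 0 in all 3 day 10 groups (-0.46 to -0.32) and above 0 in all 3 day 15 groups (0.12 to 0.41), but none of the 6 passed the test (smallest adjusted p 0.51) and every group overlapped. Under some alternatives the values of day 15 hCG and of day 15 hCG with trilostane were below 0 (lowest -0.08 and -0.10). The second probe set gave -0.42 to -0.25 on day 10 and -0.04 to 0.25 on day 15.

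The comparisons can be read against the background of all 28911 probe sets tested. In day 15 hCG with trilostane against untreated tissue, 2 of the 5 genes were called, both lower, where 8.23% of probe sets were called and 4.08% were called lower. With R5020 on day 15, 1 gene was called, lower, against 3.12% in either direction and 1.56% lower. With R5020 on day 10, 1 gene was called, lower, against 1.10% and 0.633%. These comparisons share the untreated samples. After adjustment for array set, DUSP1 and JUNB lay wholly below untreated tissue in both day 15 trilostane groups (true of 6.21% and 3.43% of probe sets). In day 10 tissue with R5020, JUNB alone did so (2.20%). Without the adjustment, only DUSP1 in day 15 hCG with trilostane stayed wholly below untreated tissue (highest 12.50, lowest untreated 12.65). In the second DUSP1 probe set, both day 15 trilostane groups overlapped untreated tissue.

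No member was called with hCG alone for 1 day (4.68% of probe sets) or 6 days (5.01%), between 6 days and 1 day (6.60%), or with hCG and trilostane on day 10 (2.58%). At an unadjusted p under 0.05 in limma these counts were 0, 1, 2 and 0 of 5, where 19.9%, 18.0%, 21.1% and 15.0% of all probe sets had such a p. Trilostane against hCG alone called 0.00346% of probe sets on day 10 and 0% on day 15, and R5020 against trilostane or against hCG alone called 0% on both days. At an unadjusted p under 0.05 the members' counts in limma were 0 and 1 for trilostane on days 10 and 15, 1 and 1 for R5020 against trilostane, and 1 and 0 for R5020 against hCG alone. The shares of all probe sets at the same p were 12.5% and 5.95%, 3.02% and 3.57%, and 5.89% and 2.38%. A count of 0 among 5 genes is near those backgrounds. In R5020 against trilostane on day 10, FOS, JUNB and DUSP1 did not overlap between groups, all lower with R5020 (2.62% of probe sets), but these groups lie wholly in different array sets, and with no array set term the differences were -1.21, -0.03 and -0.14. The second DUSP1 probe set overlapped in this comparison (-0.10 ± 0.38). Against hCG alone on day 10, JUNB with R5020 differed by -0.73 ± 0.20 (unadjusted limma p 0.00094, adjusted 0.82). Those groups also lie in different array sets, and without the adjustment their means were 8.73 with hCG alone and 8.57 with R5020.

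**Figure D2:**
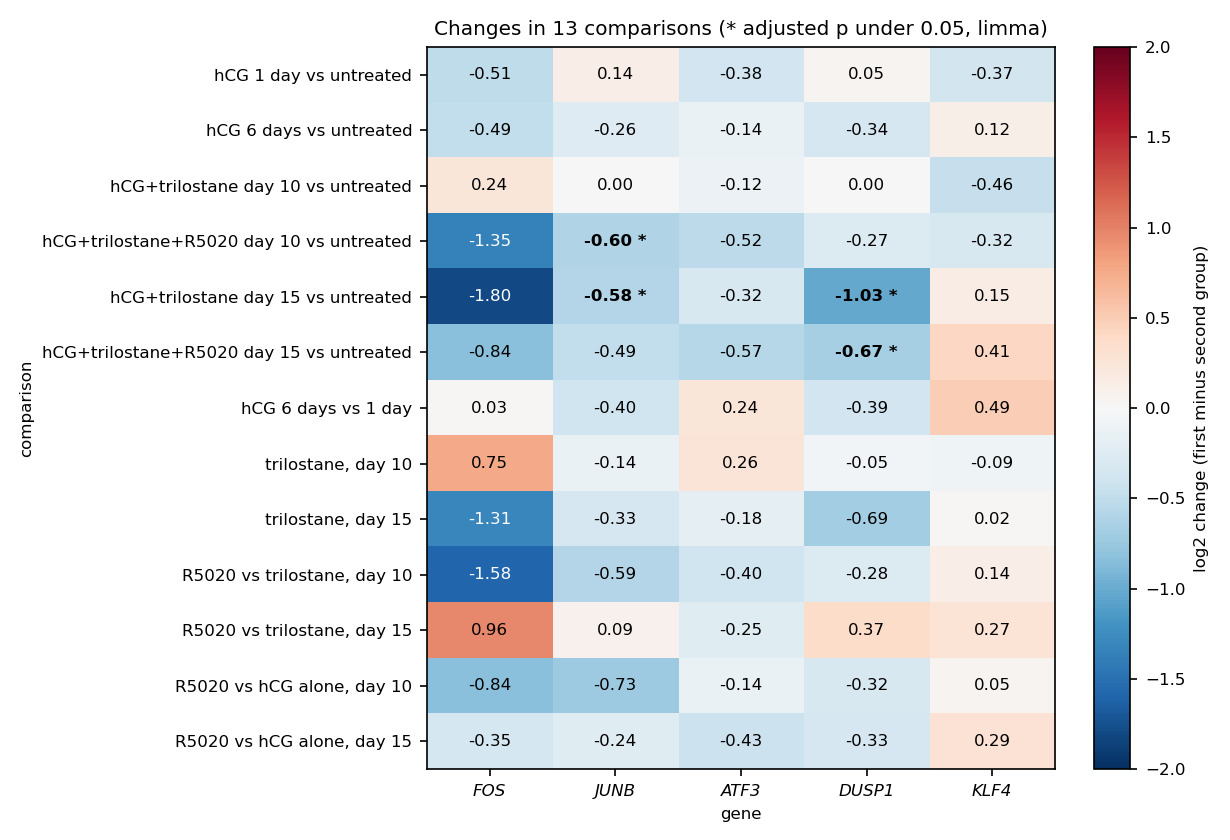
Log2 difference (first minus second group, colour and number) of the 5 genes in 13 comparisons; an asterisk marks an adjusted p under 0.05 in limma. The asterisks are at JUNB (-0.60) in day 10 with R5020, JUNB (-0.58) and DUSP1 (-1.03) in day 15 hCG with trilostane, and DUSP1 (-0.67) in day 15 with R5020, all against untreated tissue.

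Within groups, FOS, JUNB and DUSP1 deviated together. After group and array set were fitted, the deviations of FOS and JUNB correlated at r = 0.89 and rho = 0.85 over 32 samples (both adjusted p = 0.0001, permutation test with 100000 resamples, two-sided, Benjamini-Hochberg over 10 pairs; the raw p of 1e-05 is the smallest these permutations can give). Without the 2 samples farthest out in FOS, r was 0.85, and within array sets 1 and 2 it was 0.94 and 0.76. FOS and DUSP1 gave r = 0.67 and rho = 0.55 (raw permutation p 0.0004 and 0.0037, adjusted 0.0013 and 0.011), 0.73 without the outermost 2, and 0.65 and 0.69 within the sets. JUNB and DUSP1 gave r = 0.68 and rho = 0.55 (raw permutation p 0.00025 and 0.0044, adjusted 0.0013 and 0.011), 0.52 without the outermost 2, and 0.70 and 0.62 within the sets.

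ATF3 followed JUNB (r = 0.67, rho = 0.60, raw permutation p 0.00052 and 0.0015, adjusted 0.0013 and 0.0075), with 0.65 without the outermost 2 samples and 0.60 and 0.80 within the sets. With FOS it gave r = 0.56 and rho = 0.43 (raw permutation p 0.0053 and 0.028, adjusted 0.011 and 0.056), and r fell to 0.39 without day 15 hCG sample 1 and day 10 hCG with trilostane sample 2. ATF3 and DUSP1 gave r = 0.34 and rho = 0.28 (adjusted permutation p 0.17 and 0.28). The 4 pairs with KLF4 gave r of -0.04 to 0.16 (adjusted permutation p 0.66 or more for r and 0.62 or more for rho). The 32 samples include the near-identical pair.

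**Figure D3:**
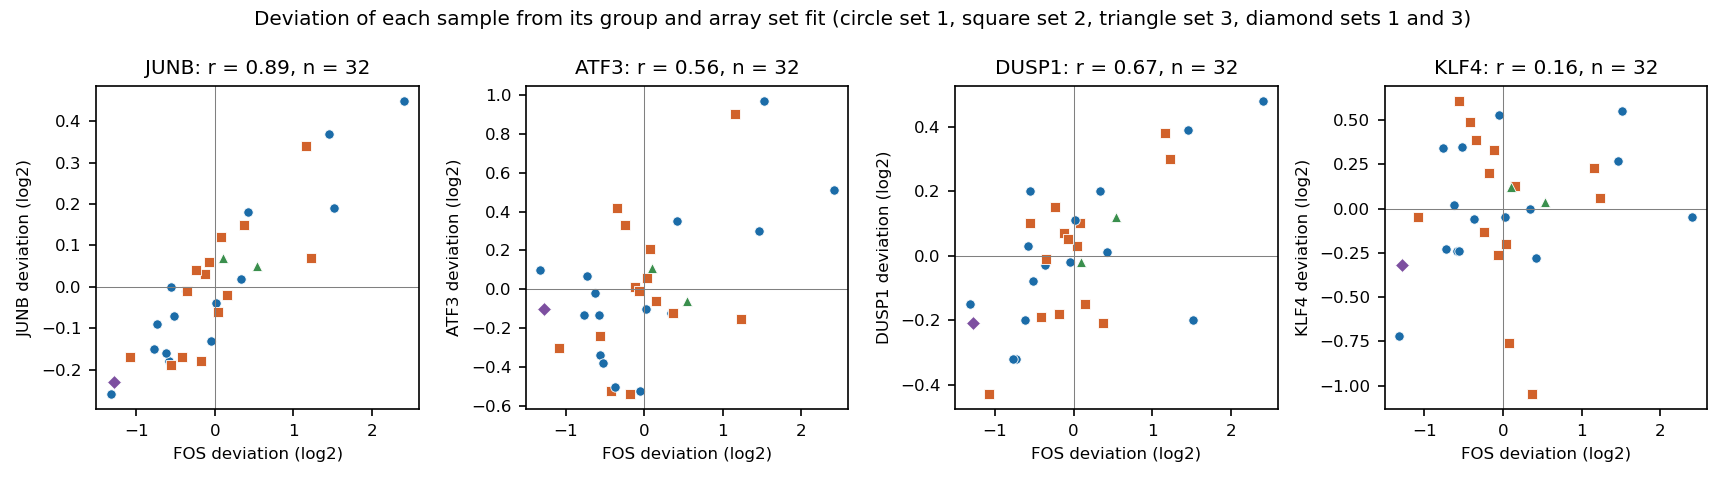
Deviation of each of 32 samples from its fitted group and array set (log2), for FOS on the x axis and the other genes on the y axes; marker shape gives the array set. JUNB rises with FOS (r = 0.89), DUSP1 and ATF3 do so less closely (0.67 and 0.56), and KLF4 shows little relation (0.16).

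The genes outside the 9 whose deviations were most like the mean of the 5 members were ranked among 9821 genes over the same 32 samples. A gene with several probe sets was ranked by the highest r among them. EGR2, a zinc finger factor of the EGR family, was first (r = 0.89), followed by the orphan nuclear receptor NR4A2 (0.86), IER2 (0.81), PYROXD1 (0.80), NR4A1 (0.79), the kinase PIM1 (0.76), the leucine zipper factor NFIL3 (0.72), the antiproliferative gene BTG2 (0.72), IRX5 (0.71) and CLSPN (0.69). NR4A2 was measured by 5 probe sets, of which the lowest gave -0.49, and the other PYROXD1 probe set gave 0.30. These values describe 32 samples, in each of which all genes share the RNA and the array.

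Of 43 other immediate early genes, 31 were measured. The list median in day 15 hCG with trilostane against untreated tissue was -0.15, against 0.00 for all probe sets. Where 4.08% of all probe sets were called lower, 6 of the 31 genes fell and none rose. They included NR4A1 (-1.34 ± 0.26, limma adjusted p = 0.0016), IER2 (-0.76 ± 0.15, 0.0016), CITED2, a CBP and p300 binding regulator (-0.63 ± 0.13, 0.0024), and the matricellular gene CCN2 (-1.46 ± 0.34, 0.0075). Without array set 3, 5 fell. With R5020 on day 15, where 3.12% of all probe sets were called, 1 fell, IER2 (-0.63 ± 0.15, 0.015), and 1 rose, the kinase SGK1 (0.73 ± 0.17, 0.018). Without array set 3, 1 fell and none rose.

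On day 10, hCG with trilostane gave 5 lower and 1 higher of the same 31 genes, and with R5020 added 4 lower and 1 higher. Of all probe sets, 2.58% and 1.10% were called in these comparisons. TRIB1, a pseudokinase (-0.75 ± 0.13, limma adjusted p = 0.0022), and CITED2 (-0.60 ± 0.12, 0.0071) were among the lower genes without R5020, and NR4A1 (-1.25 ± 0.25, 0.010) and CITED2 (-0.69 ± 0.12, 0.0042) with it. The gene that rose in both was GADD45B, a stress sensor upstream of p38 (1.62 ± 0.31, 0.0037; and 1.33 ± 0.31, 0.029). It also rose with 1 day of hCG alone (1.72 ± 0.31, 0.0015), where it was the only one of the 31 called, against 4.68% of all probe sets. After 6 days of hCG alone SGK1 was the only one called (0.65 ± 0.16, 0.017), while 1 gene was lower and 2 were higher than after 1 day: GADD45B (-1.25 ± 0.32, 0.016), SGK1 (0.69 ± 0.17, 0.016) and TRIB1 (0.63 ± 0.14, 0.0056). The shares of all probe sets called in these 2 comparisons were 5.01% and 6.60%.

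The median change of 13 measured MAP kinase phosphatases and feedback inhibitors other than DUSP1 was -0.54 in day 15 hCG with trilostane, against 0.00 for all probe sets. Where 4.08% of all probe sets were called lower, 7 of the 13 fell and none rose. The Sprouty inhibitors SPRY4 (-1.24 ± 0.23, limma adjusted p = 0.0012) and SPRY1 (-0.62 ± 0.13, 0.0042), the p38 and JNK phosphatase DUSP10 (-0.78 ± 0.15, 0.0016) and SPRED2 (-0.54 ± 0.12, 0.0046) led them. Without array set 3, 6 fell. Called lower with R5020 on day 15 were 1.56% of all probe sets. With R5020 on day 15, 3 fell (DUSP10 -0.78 ± 0.15, 0.0027; SPRY4 -0.93 ± 0.23, 0.021; SPRED2 -0.45 ± 0.12, 0.031), and 1 without array set 3.

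With 1 day of hCG alone, 3 of these 13 rose, namely DUSP16 (1.19 ± 0.20, limma adjusted p = 0.00086), PHLDA1 (0.99 ± 0.23, 0.013) and RGS2, an inhibitor of G protein signalling (1.16 ± 0.30, 0.023). The 2 that fell included SPRY2 (-0.59 ± 0.12, 0.0048). Of all probe sets, 4.68% were called after 1 day of hCG alone and 5.01% after 6 days. After 6 days, DUSP16 was higher (0.83 ± 0.19, 0.0092) and DUSP10 lower (-0.53 ± 0.14, 0.022) than in untreated tissue. Between 6 days and 1 day of hCG alone, 4 of the 13 were lower and 1 was higher (list median -0.28). In that comparison 6.60% of all probe sets were called. On day 10, hCG with trilostane gave 2 higher and 2 lower, and with R5020 1 higher and 3 lower, where 2.58% and 1.10% of all probe sets were called.

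Of 12 measured AP-1 and related leucine zipper partners, only MAFF changed in day 15 hCG with trilostane (-0.61 ± 0.15, limma adjusted p = 0.011), and only ATF4 with 1 day of hCG (0.54 ± 0.15, 0.035). Of all probe sets, 8.23% and 4.68% were called, and 1 of 12 is near those shares. Of 17 upstream kinases and factors, none was called in either day 15 trilostane group, where 8.23% and 3.12% of all probe sets were. At an unadjusted limma p under 0.05 the counts were 3 and 2, against 22.1% and 16% of all probe sets. MAPKAPK2, a kinase downstream of p38, was higher with hCG for 1 day (0.69 ± 0.15, limma adjusted p = 0.0077) and 6 days (0.87 ± 0.14, 0.00054). In day 15 hCG with trilostane, none of 8 heat shock genes (2 at an unadjusted p under 0.05) and none of 5 reference genes (0) was called. Of 7 hypoxia genes, 3 fell (2 without array set 3), where 4.08% of all probe sets were called lower.

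**Figure D4:**
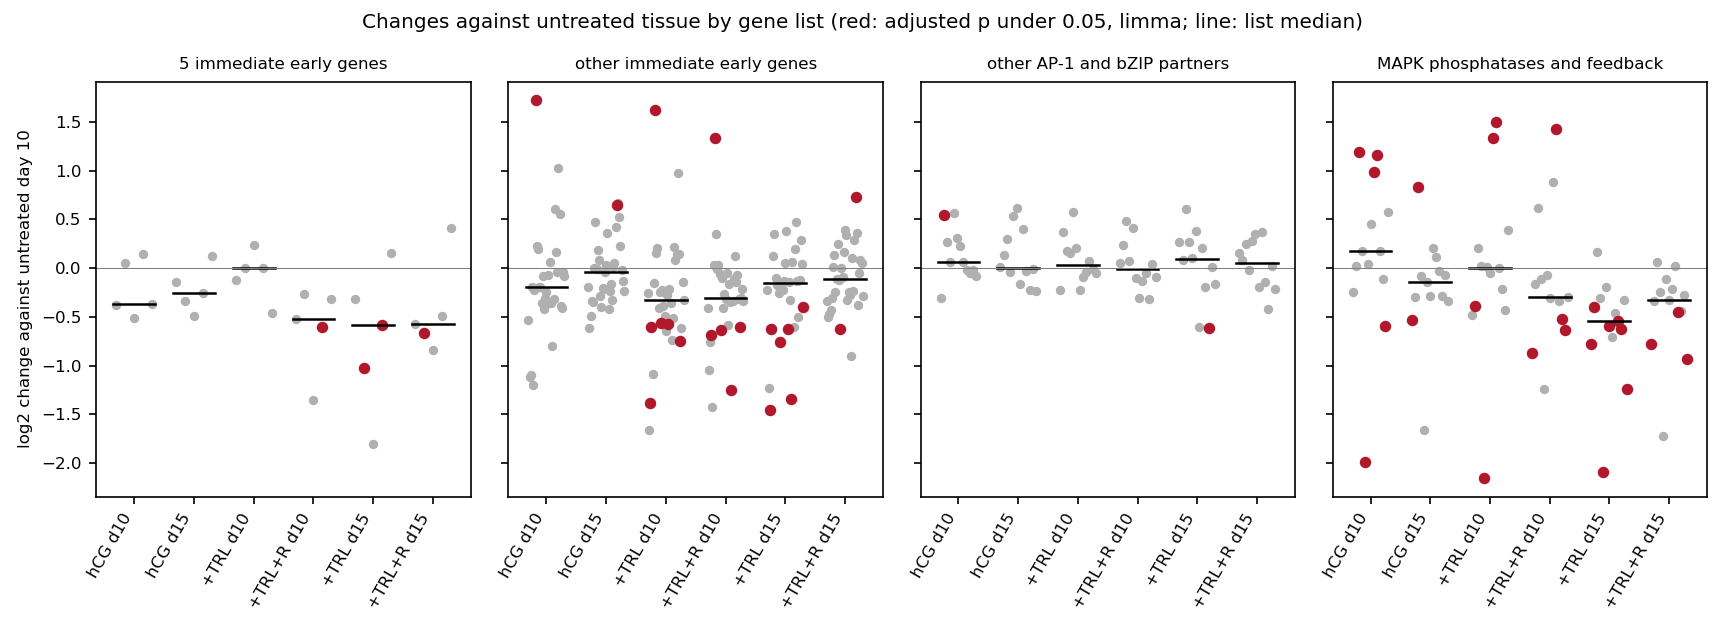
Log2 change against untreated tissue (y axis) of each measured gene in 4 lists, by treated group; every treated group received hCG, "+TRL" and "+R" mark added trilostane and R5020, and d10 and d15 the luteal day. Red points have an adjusted p under 0.05 in limma and the line is the list median, which for phosphatases and feedback genes was -0.54 in day 15 hCG with trilostane.

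Cell type markers were examined in the same comparisons. In day 15 hCG with trilostane against untreated tissue, 1199 of 28911 probe sets were called higher and 4.08% lower. With R5020, 3.12% on day 15 and 1.10% on day 10 were called in either direction. Of 8 measured macrophage markers, 6 rose in day 15 hCG with trilostane against untreated tissue, among them CD68 (0.98 ± 0.22, limma adjusted p = 0.0053), C1QB (1.49 ± 0.36, 0.0099) and AIF1 (1.69 ± 0.41, 0.011), with a list median of 1.06; without array set 3, 7 rose. Their mean level ranged from 9.97 to 10.77 in that group, from 9.70 to 10.25 with R5020 on day 15 (1 of 8 called), from 9.07 to 9.63 with R5020 on day 10 (0 called, and 0 at an unadjusted p under 0.05), and from 8.55 to 9.98 in untreated tissue. In day 15 hCG with trilostane, 2 of 6 steroidogenic markers fell, HSD3B2 (-2.41 ± 0.29, 1.6e-05) and FDXR (-0.75 ± 0.17, 0.0074), and of 7 fibroblast markers 1 rose and 2 fell. One of 5 pericyte and smooth muscle markers and 1 of 3 surface epithelium markers fell, and no endothelial (of 8), T and NK lymphocyte (of 3), neutrophil and mast cell (of 3) or red cell (of 2) marker was called, with 0, 0, 1 and 0 at an unadjusted p under 0.05. Without array set 3, the counts of called genes given here and above for this group were the same in the lists for which no other count is stated. The part of these shifts in the lower DUSP1 and JUNB was not tested.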

How the data were processed

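Gene expression was measured on 33 Affymetrix Rhesus Genome arrays. The deposited values are log2 intensities per probe set. How the authors corrected background, summarized probes and normalized is not given in the sources used here. Symbols came from the platform annotation. Each array was centred on its median, 99 control probe sets were left out, and a probe set was kept if 4 or more arrays exceeded 6.19, the overall median (28911 probe sets, 10507 genes). Groups were taken from the labels. limma 3.58.1 (R 4.3.3; lmFit, eBayes with trend) fitted group and array set over 32 samples (23 residual degrees of freedom). Tests were two-sided, with Benjamini-Hochberg adjustment over all kept probe sets in each of 15 comparisons and a threshold of 0.05. Intervals are 95%. The scripts were tested on simulated data. The number of arrays limits the precision.

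Every member is named in each comparison. Of the other lists, up to 4 genes with the smallest adjusted p per list and comparison, and the 10 genes of most similar deviation, may be named. Marker genes were named after their values were seen. The members and lists were chosen with earlier results of these data known. Alternatives covered centring, filter, array set, replicate block, pooling of arrays, genes as the mean of their probe sets, fits of the compared groups only, eBayes settings and each array left out. The list counts without array set 3 were added after seeing the data. Correlations used numpy 2.4.6 and scipy 1.17.1 (Python 3.11.15), and figures matplotlib 3.10.9.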

Additional observations from a re-analysis of the deposited data

Results flagged for a closer look

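In 35 groups of gene values examined, 3 held a sample whose gap to the next exceeded Dixon's 95% critical value, and chance gives such a sample in about 1 in 20 groups. FOS in day 10 hCG with trilostane was 10.03 in sample 2 and 8.14 in the next highest sample. JUNB in day 15 hCG with trilostane and R5020 was 7.93 in sample 1 and 8.14 in the next lowest. ATF3 in day 10 hCG was 7.79 in sample 3 and 7.33 in the next highest.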

How the results depend on the processing

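Over 75 results (5 genes in 15 comparisons) and 49 alternatives, 3526 of 3560 values kept their side of the threshold, 23 lost a call, 11 gained one and none reversed a call; 132 values with no call changed sign. The number of members called moved as follows. With no array set term it was 1 for hCG 6 days against untreated, JUNB being added (0 in the fit as reported). Also with no array set term, it was 0 for day 10 hCG with trilostane and R5020 (1 as reported), 1 for day 15 hCG with trilostane (2 as reported) and 1 for the F test (2 as reported). With no filter it was 0 for day 10 with R5020. With only the compared groups fitted it was 0 for day 10 with R5020, 1 for day 15 hCG with trilostane and 0 for day 15 with R5020. For day 15 with R5020 (1 as reported) it was 2 under a stricter filter, and 0 without array set 3, without the near-identical arrays (which gives the same fit) and within array set 2. For day 15 hCG with trilostane it was 3 within array set 2, FOS being added. With a gene taken as the mean of its probe sets the count for day 15 with R5020 stayed at 1, but the gene called was JUNB in place of DUSP1. Leaving out each array in turn gave 0 to 1 for hCG 6 days against 1 day, 0 to 1 for day 10 with R5020, 1 to 3 for day 15 hCG with trilostane, 0 to 2 for day 15 with R5020 and 1 to 2 for the F test, and 0 throughout for the other comparisons. The causes were not tested. With the replicate number as a block, 2 members were called in day 15 hCG with trilostane, 1 in each group with R5020 against untreated tissue and 2 in the F test, so no call changed. Samples with the same replicate number in the labels did not deviate together (correlations of -0.56 to 0.47 over 21 pairs of groups, none with every value above 0.1). Array names of some day 15 trilostane samples carry other numbers, so this check cannot speak to pairing by array name. Fits within a set were not run for comparisons that cross sets.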
